A study of Mus musculus with 4 samples.

Results

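Galanin (Gal), neuropeptide Y (Npy), neurotensin (Nts), vasoactive intestinal peptide (Vip), pituitary adenylate cyclase-activating polypeptide (PACAP, gene Adcyap1), cholecystokinin (Cck), corticotropin-releasing hormone (Crh) and urocortin (Ucn) are neuropeptides whose genes have been tied to peripheral nerve injury. These 8 genes were followed across 4 single-cell RNA libraries of dorsal root ganglion (DRG) neurons. They were taken by symbol, and all 8 were present among the 31053 genes of each count matrix. The questions were which neuronal subtypes carried each peptide, which Sprr1a+ cells did, and how often several peptides were found in one cell.

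There were 2 libraries per surgery, Male-Sham with Female-Sham and Male-CCI with Female-CCI, and values are given in that order where 4 are listed. CCI is chronic constriction injury, a loose ligation of the sciatic nerve, made here on both sides and followed for 7 days, and the control mice had sham surgery. All mice were 7-8 weeks old, of the C57BL/6 strain and heterozygous for PirtEGFPf, an allele in which a farnesylated EGFP replaces the coding sequence of Pirt, so the control mice carry it as well. GFP+ cells were sorted from the L4 and L5 ganglia of 5 mice pooled per library, which selects neurons with an active Pirt promoter and may leave out part of the large neurofilament-rich neurons. Littermates of both sexes were given the same surgery, so litter and surgery cannot be told apart.

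A neuropeptide is made as a long precursor, cut by prohormone convertases, stored in dense-core vesicles and released to act on G-protein-coupled receptors. Uninjured sensory neurons of the peptidergic (PEP) classes are known for CGRP and substance P, whereas galanin, neuropeptide Y and related peptides are classically described in sensory neurons after axotomy. SPRR1A, a small proline-rich protein, is a standard marker of axotomised neurons and marked the injured cells here. Neurons were named by class: non-peptidergic (NP1-3), PEP1-5, neurofilament (NF1-2), C-low-threshold mechanoreceptors (cLTMR), and CCI-induced clusters (CCI-ind), which are present mainly after injury.

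Doublets were removed, as were cells in which under 1500 genes were detected or mitochondrial counts passed 10%, which left 3281 and 5398 neurons in the male and female sham libraries and 2817 and 3638 in the male and female CCI libraries. Their median depth was 45172, 32490, 56457 and 43516.5 unique molecular identifiers (UMIs, each 1 captured RNA molecule). Barcodes shared between libraries numbered 0 to 6 among the kept cells. A further 111 to 190 cells per library formed a cluster led by satellite glial markers (SGC-like), with median depths of 4188.5 to 5175 UMIs. Levels are given as CPM, a gene's share of all UMIs summed over a group of cells on the usual depth-scaled basis, and since the kit counts molecules at the 3′ end, levels of different genes were compared without a length correction. A cell was called positive for a gene where its normalised value, ln(1 + counts per 10000), was above 1, and Sprr1a+ and Sprr1a- cells were split at the same limit.

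Sprr1a itself followed the labels. At least 1 Sprr1a UMI was found in 3.44% and 6.60% of the sham neurons and in 83.4% and 80.1% of the CCI neurons. Sprr1a+ neurons numbered 42 of 3281 and 144 of 5398 in Male-Sham and Female-Sham, and 1467 of 2817 and 1790 of 3638 in Male-CCI and Female-CCI, which is 1.28%, 2.67%, 52.1% and 49.2%. The clusters led by Anxa1 (548 and 694 cells in the CCI libraries), Wfdc3 (270 and 306) and Tmem144 (175 and 200) carried CCI-ind markers, and 40 and 134 cells of these 3 clusters were present in the sham libraries. Clusters led by Ly6a (140 and 263 CCI cells) and Ankrd1 (153 and 163 CCI cells) matched no marker list and are called by their leading genes.

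The promoter-proximal sequences of 4 members that differed between surgeries (Gal, Npy, Nts and Ucn) are shown, since these genes were all higher after CCI. Crh, also higher, was not searched here. Each is the 250 bases before the annotated start, taken from RefSeq on GRCm38.p6 (the mm10 build of the deposited data), written 5′ to 3′ on the gene's own strand. Capitals mark letters that match an AP-1 motif (TGANTCA), a cAMP response element (CRE, TGACGTCA) or its TGACG half-site, searched on both strands, where a half-site within a full CRE is not counted again. The Gal window is chr19:3414545-3414794 (minus strand), that of Npy chr6:49822460-49822709 (plus strand), that of Nts chr10:102490419-102490668 (minus strand) and that of Ucn chr5:31138896-31139145 (minus strand).
Gal: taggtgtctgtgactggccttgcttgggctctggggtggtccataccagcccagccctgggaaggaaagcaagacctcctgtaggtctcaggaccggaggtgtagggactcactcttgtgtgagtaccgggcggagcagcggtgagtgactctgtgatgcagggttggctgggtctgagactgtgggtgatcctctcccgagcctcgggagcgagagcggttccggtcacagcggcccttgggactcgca
Npy: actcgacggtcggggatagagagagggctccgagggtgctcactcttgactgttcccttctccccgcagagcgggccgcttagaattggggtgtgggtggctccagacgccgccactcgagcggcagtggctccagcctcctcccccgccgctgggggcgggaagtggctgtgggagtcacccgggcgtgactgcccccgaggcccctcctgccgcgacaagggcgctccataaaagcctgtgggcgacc
Nts: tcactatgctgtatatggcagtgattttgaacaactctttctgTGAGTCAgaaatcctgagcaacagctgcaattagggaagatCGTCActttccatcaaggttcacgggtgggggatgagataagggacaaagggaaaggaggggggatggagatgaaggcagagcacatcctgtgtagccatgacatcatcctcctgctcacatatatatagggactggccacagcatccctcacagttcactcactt
Ucn: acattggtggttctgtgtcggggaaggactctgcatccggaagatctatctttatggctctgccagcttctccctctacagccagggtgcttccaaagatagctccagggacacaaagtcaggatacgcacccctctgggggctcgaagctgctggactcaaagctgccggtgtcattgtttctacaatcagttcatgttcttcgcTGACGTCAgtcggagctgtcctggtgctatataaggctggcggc
The Nts window held an AP-1 match 207 to 201 bases and a half-site 166 to 162 bases before the start, and the Ucn window a full CRE 44 to 37 bases before it. Vip, Adcyap1 and Cck each held a TGACG half-site, while none of the searched letters was in the Gal and Npy windows. In all 32851 promoter windows of the same length, 6.75% held the AP-1 letters, 1.55% the CRE and 17.8% the half-site, and a match describes the letters and not a bound site. By the GENCODE annotation, whose starts can differ from those of RefSeq, the gene bodies lie on chromosome 19 (Gal, 3409915 to 3414544), 6 (Npy, 49822710 to 49829507), 10 (Nts, 102481756 to 102490486, and Vip, 5639218 to 5647617), 17 (Adcyap1, 93199017 to 93206537), 9 (Cck, 121489824 to 121495694), 3 (Crh, 19693401 to 19695396) and 5 (Ucn, 31138063 to 31138829).

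Over all neurons, Gal, Npy, Nts, Crh and Ucn were higher in both CCI libraries than in both sham libraries, and Gal reached the highest level of the 8. Gal, which encodes galanin, an inhibitory peptide released from sensory and other neurons, stood at 343 and 372 CPM in Male-Sham and Female-Sham and at 3516 and 3610 CPM in Male-CCI and Female-CCI. It rose 10.4-fold (log2 fold change 3.37 ± 0.06 SE, edgeR quasi-likelihood test, adjusted p = 1.3e-06). Nts, whose tridecapeptide modulates nociception and dopamine transmission, was at 111 and 196 CPM after sham and at 1096 and 1117 CPM after CCI, a 7.48-fold rise (2.90 ± 0.36, adjusted p = 0.0091). Both pairs of libraries lay well apart, and the male and female values of a surgery differed far less than the surgeries.

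The other 3 started from near-absence. Npy, a peptide of sympathetic neurons that acts on Y receptors, had 0.60 and 2.16 CPM after sham and 156 and 91.9 CPM after CCI (6.5 ± 0.85, 90.7-fold, adjusted p = 0.0228). Crh, the hypothalamic releasing hormone of the stress axis, had 2.61 and 6.75 CPM against 56.0 and 48.5 CPM (3.52 ± 0.60, 11.5-fold, adjusted p = 0.0309). Ucn, a related peptide that binds the same receptors, had 0.94 and 3.01 CPM against 37.4 and 34.2 CPM (4.21 ± 0.69, 18.5-fold, adjusted p = 0.0256). The groups did not overlap for any of these 5 genes, which with 2 libraries per surgery says little by itself. Of all 17233 genes tested, 15.2% were called higher after CCI (adjusted p under 0.05 and log2 fold change over 0.5) and 12.7% lower, against 5 of the 7 peptide genes tested called higher. With Male-CCI left out, the adjusted p was 0.0799 for Nts, 0.106 for Npy, 0.184 for Crh and 0.171 for Ucn, and with Female-CCI left out 0.0875, 0.121, 0.174 and 0.164, while Gal stayed called. Without Male-Sham or Female-Sham the adjusted p of Npy was 0.0922 and 0.0731.

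Adcyap1, Cck and Vip did not follow the 5. Adcyap1, whose PACAP raises cAMP in its target cells, was at 196 and 224 CPM after sham and at 129 and 158 CPM after CCI, with no overlap of the groups, and its log2 fold change of -0.50 ± 0.11 (adjusted p = 0.0136) fell just short of the size threshold. With Female-CCI or Male-Sham left out it passed that threshold, at -0.65 and -0.60. Cck, best known as a gut and cortical peptide, stayed between 0.51 and 1.45 CPM in the 4 libraries (0.87 ± 0.40, adjusted p = 0.118), and it was called with Male-CCI left out (1.32, adjusted p = 0.00869). Vip was close to absence, with 19, 5, 6 and 4 UMIs in the 4 libraries, 15 of the 19 in 1 cell, and was too rare to be tested. Because these sums cover every neuron, they move with the share of Sprr1a+ cells as well as with the level per cell.

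**Figure D1:**
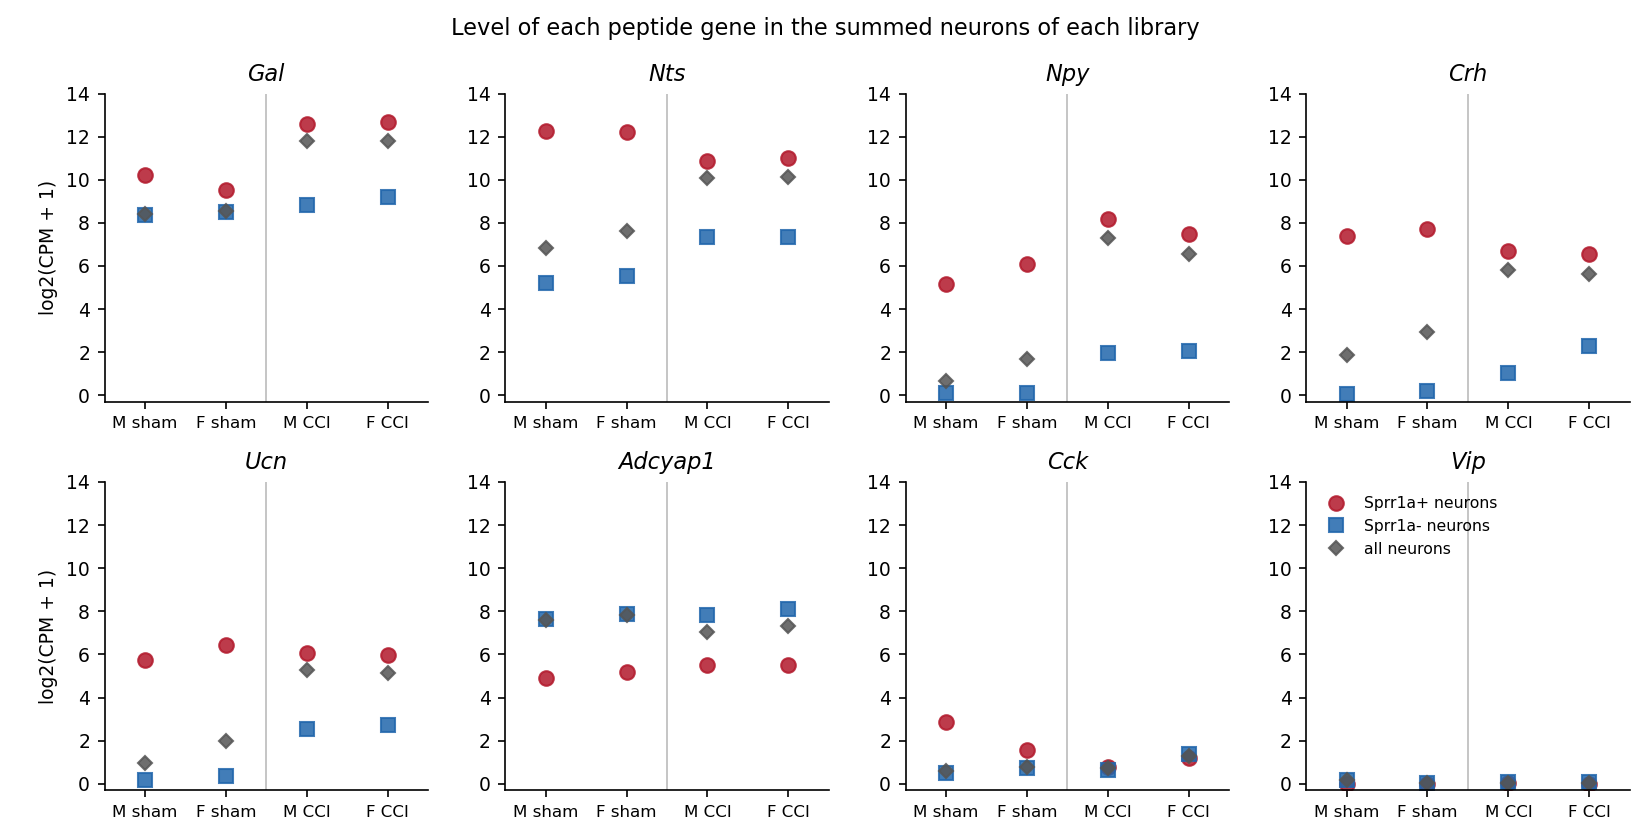
Level of each of the 8 peptide genes, 1 panel per gene, as log2(CPM + 1) in the Sprr1a+ neurons (circles), the Sprr1a- neurons (squares) and all neurons (diamonds) of each library, M and F standing for the male and the female library. Gal sits at 6114 and 6580 CPM in the Sprr1a+ neurons of the CCI libraries and at 451 and 588 CPM in their Sprr1a- neurons, while Adcyap1 shows the opposite order.

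Counted cell by cell, Gal was the most widespread of the 8 after injury. It was positive in 39.5% and 44.6% of the sham neurons and in 60.1% and 64.9% of the CCI neurons, and Nts in 4.05% and 4.15% against 43.6% and 40.2%. Npy went from 0.12% and 0.37% to 8.59% and 7.20%, Crh from 0.34% and 0.80% to 6.60% and 6.07%, and Ucn from 0.09% and 0.46% to 5.96% and 5.69%. Adcyap1 was the exception, with 43.3% and 47.9% of sham neurons and 25.6% and 30.2% of CCI neurons positive. Cells differ in depth, so every cell was also thinned to 2000 UMIs: any Gal UMI was then found in 34.1%, 37.7%, 55.4% and 59.8% of the neurons of the 4 libraries, any Nts UMI in 3.90%, 4.22%, 39.3% and 37.2%, and any Adcyap1 UMI in 30.7%, 33.2%, 19.2% and 23.3%. The order of the libraries was the same after thinning for Gal, and sham and CCI stayed apart for each of these genes.

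SGC-like cells were measured alongside, since droplets can take up RNA released by other cells. Of them 21 of 130 and 16 of 111 in Male-CCI and Female-CCI were themselves Sprr1a+. SGC-like cells were positive for Gal in 2.63%, 2.67%, 22.3% and 40.5% of cells in the 4 libraries, for Nts in 0.53%, 3.33%, 9.23% and 16.2%, and for Npy in 0% (0 of 190, which allows up to 1.58%), 0.67%, 4.62% and 2.70%. A shallow cell passes the limit with fewer UMIs, so these shares and the Sprr1a+ counts cannot be set directly against those of neurons. In Female-CCI the 111 SGC-like cells held 113 Gal UMIs. The Gal level of SGC-like cells was 11.5, 5.63, 85.0 and 198 CPM in the 4 libraries, far below that of the Sprr1a+ neurons but higher after CCI. Per 100 Gal UMIs the SGC-like cells of Male-CCI and Female-CCI held 38.5 and 28.3 Nts UMIs, NP2-like Sprr1a- neurons 42.5 and 32.7, and Sprr1a+ neurons 30.9 and 31.3. How far free RNA enters the low values given below was not tested.

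Within the CCI libraries, the injury peptides were concentrated in Sprr1a+ neurons. Gal was at 6114 and 6580 CPM in the Sprr1a+ neurons of Male-CCI and Female-CCI and at 451 and 588 CPM in the Sprr1a- neurons, 13.9-fold higher (3.80 ± 0.13, adjusted p = 0.00584). Npy was at 286 and 179 CPM against 2.85 and 3.10 CPM (6.43 ± 0.27, 86.3-fold, adjusted p = 0.0092). Nts was at 1888 and 2058 CPM against 162 and 160 CPM (3.79 ± 0.04, 13.8-fold, adjusted p = 4.42e-10). Each of these peptides differed by far more than the male and the female library did. Ucn was at 64.9 and 62.2 CPM against 4.86 and 5.65 CPM (3.77 ± 0.07, 13.6-fold, adjusted p = 1.3e-09).

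Crh showed a difference of the same order, 103 and 92.4 CPM against 1.02 and 3.83 CPM, but did not pass the test (5.49 ± 0.68, adjusted p = 0.0644). Adcyap1 ran the other way, with 45.2 CPM in the Sprr1a+ neurons of both libraries and 227 and 272 CPM in the Sprr1a- neurons, and was lower by 2.28 ± 0.08 on the log2 scale, a ratio of 0.205 (adjusted p = 5.99e-05). Cck did not differ detectably (0.11 ± 0.21, adjusted p = 0.661). In this comparison 20.9% of 16242 genes were called higher in Sprr1a+ neurons and 24.7% lower, beside 4 and 1 of the 7 peptides tested. Sprr1a+ cells were the deeper ones, with median UMIs of 60287 and 45672 against 51202.5 and 40010.

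The positive cells themselves were counted next. Of the Npy-positive neurons, 240 of 242 in Male-CCI and 257 of 262 in Female-CCI were Sprr1a+ (99.2% and 98.1%), against 52.1% and 49.2% of all neurons. For Crh this held for 185 of 186 and 215 of 221 positive cells, for Nts for 1162 of 1227 and 1365 of 1462 (94.7% and 93.4%), and for Ucn for 96.4% and 91.3%. Gal was less restricted, since 1115 of 1694 and 1437 of 2360 Gal-positive cells (65.8% and 60.9%) were Sprr1a+, yet those cells held 94.1% and 91.9% of the Gal UMIs. The median level of a Gal-positive Sprr1a+ CCI cell was 45.5 and 44.7 counts per 10000, against 9.36 and 9.03 in Gal-positive Sprr1a- cells of the same libraries and 10.4 and 9.53 in those of the sham libraries. Of Adcyap1-positive cells 87 of 721 and 130 of 1100 were Sprr1a+ (12.1% and 11.8%).

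The few Sprr1a+ cells of the sham libraries carried the same peptides. Nts was positive in 100% and 98.6% of them in Male-Sham and Female-Sham, against 79.2% and 76.3% of the Sprr1a+ cells of Male-CCI and Female-CCI. Crh was positive in 26.2% and 29.9% of them against 12.6% and 12%, and Gal in 38.1% and 42.4% against 76.0% and 80.3%. All 4 and 20 Npy-positive, 11 and 43 Crh-positive and 3 and 25 Ucn-positive neurons of Male-Sham and Female-Sham were Sprr1a+. With 42 and 144 cells these shares are descriptions of the cells found, without a test.

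Gal had 2 separate settings. In Sprr1a- neurons it was a gene of the PEP2-like and PEP3/4-like classes, at 1770, 1581, 1503 and 1593 CPM and at 1128, 1003, 913 and 946 CPM in the 4 libraries. PEP5-like Sprr1a- cells followed with 303, 358, 305 and 479 CPM and PEP1-like cells with 134, 136, 138 and 199 CPM. The PEP2-like class lay above the PEP3/4-like class in each library, and their ranges did not overlap. In the CCI libraries the Ankrd1-led cluster (16384 and 18504 CPM) and the Ly6a-led cluster (14880 and 16951 CPM) had the highest levels, which overlapped with each other, and 98.0% to 100% of their cells were positive.

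NF1-like Sprr1a+ cells (8879 and 5632 CPM) and NF2-like Sprr1a+ cells (6868 and 6734 CPM) came next and could not be ordered. The Wfdc3-led (5435 and 4742 CPM), Anxa1-led (3386 and 3108 CPM) and Tmem144-led (3179 and 4510 CPM) clusters were lower, and NP1-like Sprr1a+ cells lowest of these at 1153 and 1735 CPM, with 42% and 47% positive. In the Ly6a-led cluster the 5 endothelial markers summed to 195 and 190 CPM with Cldn5 at 0, against 65.2 and 71.2 CPM over all neurons of these libraries, and their part in its Gal level was not tested.

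Npy was unevenly spread over cells. NF1-like Sprr1a+ cells had 2221 and 1410 CPM with 50.9% and 51.5% of cells positive in Male-CCI and Female-CCI, and NF2-like Sprr1a+ cells 1343 and 1501 CPM with 30.3% and 39.4% positive. These levels overlapped between the 2 neurofilament classes. The Anxa1-led cluster had 96.1 and 89.0 CPM, yet held the most positive cells, 46.3% and 46.9% of all Npy-positive neurons, and 20.4% and 17.7% of its own cells were positive. The Ankrd1-led cluster (2.19 and 1.96 CPM, 0% positive) and the Ly6a-led cluster (3.66 and 7.19 CPM, 0% and 1.14% positive), both rich in Gal, compare with 10.5 and 7.00 CPM in SGC-like cells, and 0 of 153 cells allows a share of up to 1.96%. The 10 cells richest in Npy held 43.8% and 40.4% of the Npy UMIs of Male-CCI and Female-CCI, with up to 1977 and 1375 UMIs in 1 cell, against 6.65% and 5.10% for Gal, 5.67% and 5.45% for Nts, 33.3% and 31.9% for Cck, 16.6% and 13.6% for Crh and 10.0% and 8.63% for Ucn.

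Nts was a gene of NP1-like neurons before injury. NP1-like Sprr1a- cells had 1152, 1778, 2885 and 2812 CPM in the 4 libraries with 94.3% to 98.8% positive, and the NP1-like Sprr1a+ cells of the CCI libraries had 2829 and 3554 CPM with 100% positive. Tmem144-led cells had 3168 and 2321 CPM with 96.0% and 89.5% positive, Anxa1-led cells 2373 and 2825 CPM with 98% positive, and Wfdc3-led cells 1738 and 2018 CPM. The range of the Tmem144-led cells overlapped with those of the NP1-like Sprr1a+ and the Anxa1-led cells, so these could not be ordered against it. NP1-like Sprr1a+ cells lay above Anxa1-led cells, with 2829 and 2825 CPM as the nearest values. NF1-like (1593 and 1602 CPM) and NF2-like (946 and 1073 CPM) Sprr1a+ cells lay below these injured groups, and the Ankrd1-led (436 and 338 CPM) and Ly6a-led (155 and 165 CPM) clusters lowest.

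Crh was concentrated in 1 cluster. The Tmem144-led cells had 771, 668, 766 and 630 CPM in the 4 libraries, with all 9 and 35 of 42 cells positive in the sham libraries and 81.1% and 72.0% positive in the CCI libraries. That cluster held 81.0% and 73.5% of the Crh UMIs of the CCI libraries, although Crh took no part in the clustering. Anxa1-led cells were far behind at 31.2 and 30.7 CPM, with 3.83% and 5.33% positive. No Sprr1a- cell of the NP2-, NP3-, PEP1-, PEP2-, PEP3/4-, PEP5-, NF1-, NF2- or cLTMR-like classes was positive for Crh in any library, that is 0 of 43 to 1399 cells per class and library, which allows a share of up to 6.98% in the smallest and 0.214% in the largest of them.

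Ucn and its relative Crh were highest in different groups of cells. Of the groups compared here, NF2-like Sprr1a+ cells had the highest level after CCI, 167 and 159 CPM in Male-CCI and Female-CCI, followed by NP1-like Sprr1a+ cells with 108 and 104 CPM. Wfdc3-led cells (88.5 and 70.1 CPM) and Anxa1-led cells (69.7 and 77.1 CPM) overlapped, and NF1-like Sprr1a+ cells had 39.5 and 39.3 CPM. In the Crh-rich Tmem144-led cluster Ucn was at 15.5 and 7.08 CPM, and in the Ankrd1-led cluster at 2.74 and 2.45 CPM.

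Adcyap1 was a gene of uninjured peptidergic neurons. Of the Sprr1a- cells it was positive in 98.8% to 99.4% of the PEP3/4-like class (663, 655, 639 and 694 CPM in the 4 libraries), in 89.9% to 93.6% of the PEP2-like class (456, 502, 531 and 618 CPM) and in 68.4% to 74.8% of the PEP1-like class (282, 282, 296 and 312 CPM). The order of these 3 classes was the same in every library. CCI-ind-like cells were positive in 5.0%, 2.24%, 2.22% and 2.00% of cases. Among injured cells the NF1-like class stood out, with 43.6% and 48.5% of its Sprr1a+ cells in Male-CCI and Female-CCI positive (207 and 196 CPM), against 4.05%, 3.64%, 6.25% and 8.93% of NF1-like Sprr1a- cells. NF2-like Sprr1a+ cells were positive in 19.7% and 39.4% of cases, against 11.7%, 19.1%, 16.3% and 18.8% of NF2-like Sprr1a- cells.

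Cck and Vip stayed rare in each class. NP1-like Sprr1a- cells had 6.49, 9.30, 2.82 and 10.8 Cck CPM and the Pvalb-led cluster of the NF1-like class 4.91, 8.94, 3.37 and 10.1 CPM. Over all neurons 0, 2, 1 and 2 cells were positive for Cck and 1, 0, 1 and 0 for Vip.

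**Figure D2:**
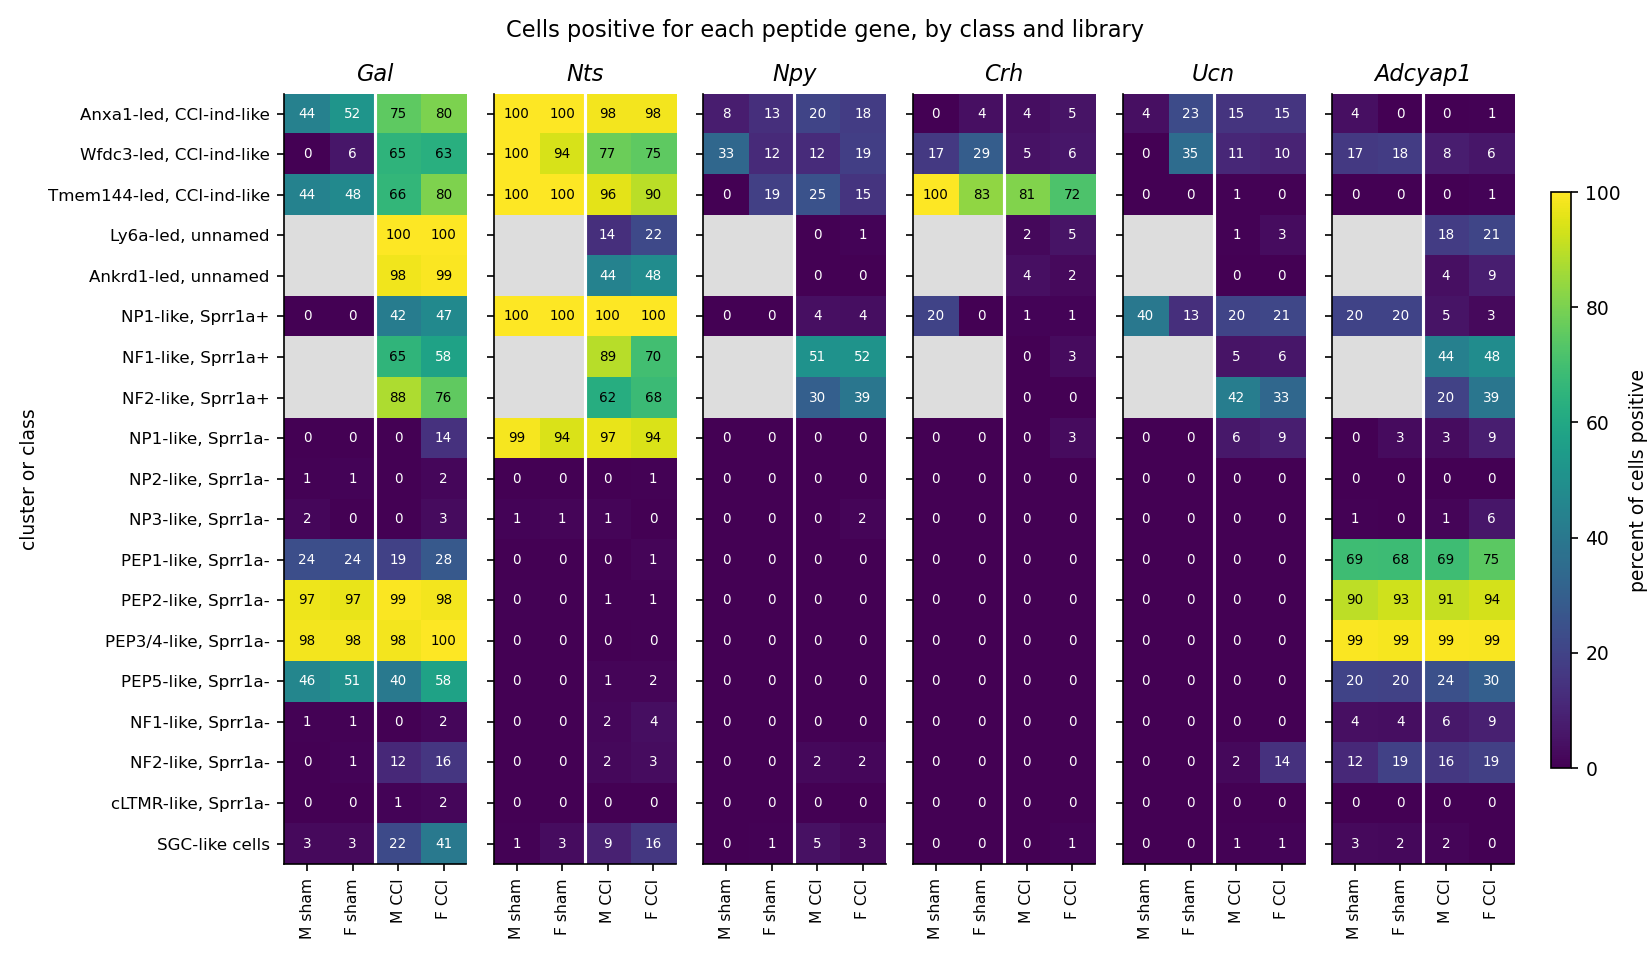
Percent of cells positive for 6 of the peptides (1 panel each, 1 column per library, M and F for the male and female library) in each cluster or class (rows), grey where fewer than 5 cells were present. Gal is above 96% in PEP2- and PEP3/4-like Sprr1a- cells of every library and at 98.0% to 100% in the Ankrd1-led and Ly6a-led clusters after CCI, whereas Crh stands out in the Tmem144-led cluster.

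Injured neurons that kept the markers of their class were then set against uninjured neurons of that class, Sprr1a+ cells of the CCI libraries against Sprr1a- cells of the sham libraries. NP1-, NF1- and NF2-like neurons had enough cells: 98 and 112, 55 and 33, and 66 and 66 Sprr1a+ cells in Male-CCI and Female-CCI, against 83 and 71, 148 and 165, and 77 and 94 Sprr1a- cells in Male-Sham and Female-Sham. The PEP5-like class held too few Sprr1a+ cells in this clustering. When genes that differed between surgeries were left out of the clustering, it held 133 and 146 in Male-CCI and Female-CCI, of which 97.0% and 98.6% were Gal-positive. The NP2-like class then held 72 and 112, with 91.7% and 87.5% Gal-positive. Still 50.4% and 48.4% of the Sprr1a+ cells stayed CCI-ind-like. Of the peptides tested, 4 of 7 were called in the NP1-like class, 6 of 7 in the NF1-like class and 6 of 6 in the NF2-like class, each of them higher after CCI. Of all genes, 41.5%, 45.5% and 42.4% were called in either direction in these classes. Npy and Cck in the NF2-like class had 0 sham UMIs, and Npy and Crh in the NP1-like class had 1 each. These, and Crh in the NF1-like class with 3, passed the low-count filter only through their CCI sums, which set their direction beforehand. The same held for Npy and Ucn in the NF1-like class, with 5 and 9 sham UMIs. It also held for Nts and Ucn in the NF2-like class, with 12 sham UMIs each. Ucn in the NP1-like class had its 19 sham UMIs in Female-Sham alone, so it passed only together with a CCI sum. Vip was too rare to be tested.

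In NF1-like neurons Gal, Npy, Nts, Adcyap1, Ucn and Crh were called. Gal went from 3.79 and 6.21 CPM in sham to 8879 and 5632 CPM in CCI (10.86 ± 0.57, 1858-fold, adjusted p = 0.00269), and Npy from 0.39 and 0 to 2221 and 1410 CPM (13.27 ± 0.74, adjusted p = 0.00259). Nts went from 1.70 and 3.59 to 1593 and 1602 CPM (9.60 ± 0.19, 778-fold, adjusted p = 6.34e-11). Adcyap1 rose here, from 36.5 and 36.4 to 207 and 196 CPM (2.80 ± 0.09, 6.97-fold, adjusted p = 7.69e-11), opposite in sign to its value over all neurons. Ucn rose from 0.39 in both sham libraries to 39.5 and 39.3 CPM (6.93 ± 0.26, 122-fold, adjusted p = 1.86e-10).

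Crh was called as well, from 3 UMIs in the sham sums to 28 and 31 UMIs in CCI, a ratio of 73.6 with a counting interval of 24.0 to 367. Within the NF1-like class 53 and 32 of the Sprr1a+ cells came from its Ntng1-led cluster and 2 and 1 from its Pvalb-led cluster. With Male-Sham or Female-Sham left out, the adjusted p of Gal was 0.0781 and 0.0717 and that of Npy 0.0676 and 0.0582, at fold changes of the same direction.

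In NF2-like neurons Gal, Npy, Nts, Adcyap1, Ucn and Cck were called, and Crh was too rare for the test (1 UMI in sham, 6 and 16 in CCI, ratio 23, interval 3.72 to 949). Gal went from 9.57 and 11.5 CPM to 6868 and 6734 CPM (9.59 ± 0.15, 770-fold, adjusted p = 2.16e-10), Nts from 0.51 and 1.73 to 946 and 1073 CPM (10.08 ± 0.21, 1080-fold, adjusted p = 1.46e-09) and Ucn from 1.2 and 0.96 to 167 and 159 CPM (7.45 ± 0.18, 175-fold, adjusted p = 4.49e-09). Npy had 0 UMIs in both sham sums and 8788 and 6062 UMIs in the CCI sums, so it was at least 5173-fold higher when the sham group is set at 3 UMIs. Adcyap1 rose 2.03-fold, from 68.2 and 81.3 to 101 and 157 CPM (1.02 ± 0.19, adjusted p = 0.00313). Cck, with 0 UMIs in sham and 15 and 12 UMIs in CCI, was at least 9.40-fold higher and also called, at 2.29 and 2.97 CPM.

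In NP1-like neurons Gal went from 2.85 and 2.86 to 1153 and 1735 CPM (9.03 ± 0.51, 524-fold, adjusted p = 0.00311), whereas Nts was high before injury and did not pass the test (1152 and 1778 against 2829 and 3554 CPM, 1.18 ± 0.37, 2.27-fold, adjusted p = 0.126). With Male-Sham or Female-Sham left out, Nts was called at 0.88 and 1.54. Ucn went from 0 and 6.80 to 108 and 104 CPM (5.25 ± 0.83, 38.1-fold, adjusted p = 0.039), and its adjusted p was 0.218 and 0.221 with Male-CCI or Female-CCI left out.

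Npy (1 sham UMI against 174 and 114, ratio 145, interval 25.9 to 5761) and Crh (1 against 62 and 36, ratio 49.5, interval 8.67 to 1973) were called in NP1-like neurons at low levels. The NP1-like class was made of different clusters in the 2 surgeries, the Cd207-led cluster holding 97 and 110 of its Sprr1a+ cells in CCI and the Sst-led cluster most of its sham cells. Nts was at 1153, 1113, 1132 and 1464 CPM in the Sst-led cluster of the 4 libraries and at 8589, 9903, 3171 and 3728 CPM in the Cd207-led cluster, which had 6 and 23 cells in the sham libraries. Adcyap1 in this class was not called (1.76 ± 1.01, adjusted p = 0.30) but was called at 0.70 without Male-Sham and at 4.08 without Female-Sham. The sign of the Cck change (0.08 ± 0.52) turned with Female-CCI or Male-Sham left out, to -0.71 and -0.22.

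By its markers the Ankrd1-led cluster was nearest to the PEP5-like class, and its Sprr1a+ cells were joined to the PEP5-like cells in a comparison added after the data were seen. Gal then stood at 303 and 356 CPM in sham and 16465 and 18276 CPM in CCI (6.01 ± 0.10, 64.6-fold, adjusted p = 1.17e-21). Adcyap1 fell by 0.60 ± 0.09 on the log2 scale (90.4 and 90.3 to 44.6 and 53.2 CPM, adjusted p = 7.66e-07), opposite to its change in the neurofilament classes. Of all genes in this comparison 46.3% were called.

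**Figure D3:**
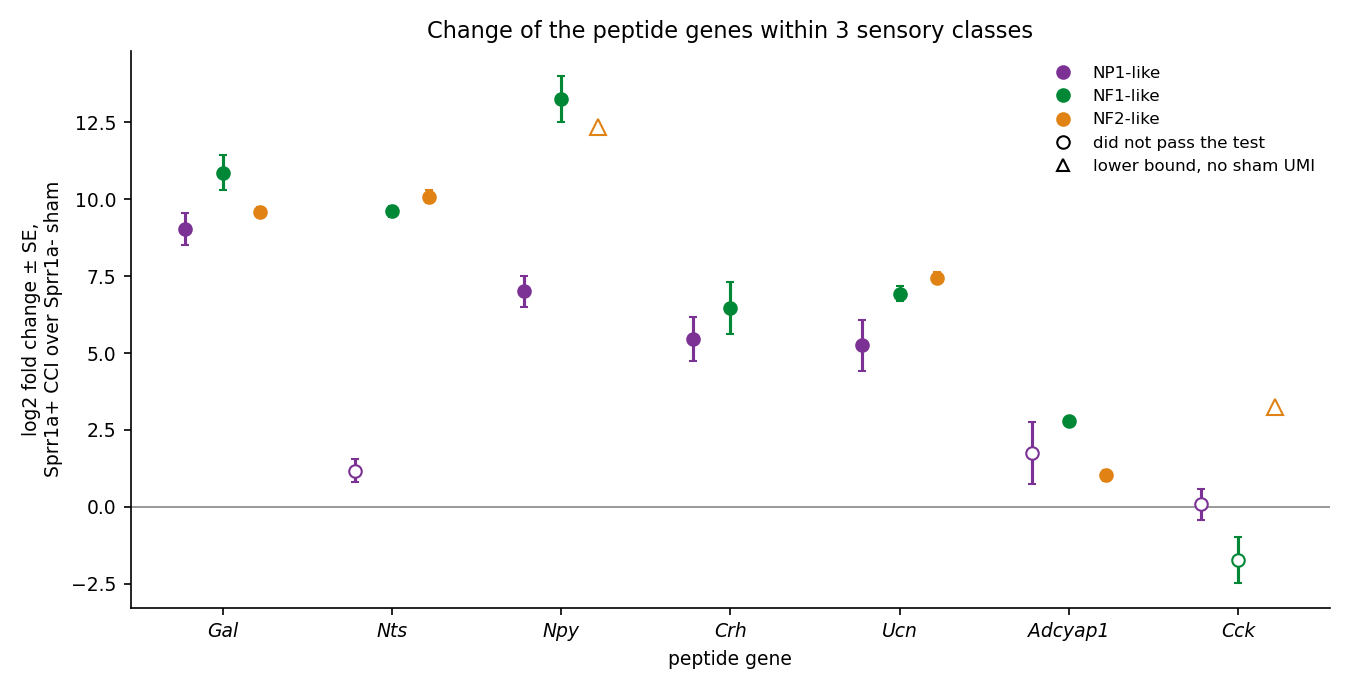
Log2 fold change (± SE) of 7 peptide genes in Sprr1a+ CCI against Sprr1a- sham neurons of the NP1-, NF1- and NF2-like classes, with filled circles where the gene was called, open circles where it was not, and triangles for lower bounds against sham sums of 0 UMIs. Nts is at 1.18 in NP1-like cells and at 9.60 and 10.08 in NF1- and NF2-like cells, and fitted values with 1 to 3 sham UMIs (Npy and Crh in NP1-like, Crh in NF1-like cells) depend on the prior count.

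The classes were compared with each other by an interaction term. The rise of Nts was larger in NF1-like than in NP1-like neurons by 8.37 ± 0.18 on the log2 scale (adjusted p = 4.42e-20) and larger in NF2-like than in NP1-like neurons by 8.88 ± 0.23 (adjusted p = 1.75e-18). The NP1-like side of these terms sets mainly Cd207-led CCI cells against mainly Sst-led sham cells. In the Cd207-led cluster by itself, which had few sham cells, Nts was lower after CCI. The part of this change of clusters in the Nts differences was not tested. NF2- and NF1-like neurons did not differ detectably in Nts (0.51 ± 0.42, adjusted p = 0.516). The change of Cck was larger in NF2-like neurons than in NP1-like neurons by 7.12 ± 1.27 (adjusted p = 1.25e-04) and than in NF1-like neurons by 8.69 ± 1.39 (adjusted p = 6.32e-05), differences that rest on the 0 UMIs of the sham NF2-like sums and depend on the prior count. For Gal the differences were 1.79 ± 1.44, 0.56 ± 1.34 and -1.23 ± 0.79 between NF1- and NP1-, NF2- and NP1-, and NF2- and NF1-like neurons, none called (adjusted p = 0.443, 0.841 and 0.414). Of all 13058 genes tested 29%, 22.6% and 15.2% differed in these 3 pairs.

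The same classes were also compared within the CCI libraries, Sprr1a+ against Sprr1a-. In NF1-like neurons Npy (9.62 ± 0.20), Ucn (5.65 ± 0.30), Nts (5.57 ± 0.44), Crh (3.56 ± 0.47) and Adcyap1 (2.35 ± 0.11) were called higher in Sprr1a+ cells and Gal missed the threshold (7.87 ± 0.69, adjusted p = 0.0591), where 43.3% of all genes were called. Ucn (0.74 and 1.22 CPM in Sprr1a- cells) and Crh (1.12 and 0.91 CPM) passed the low-count filter only through their Sprr1a+ sums, which set their direction beforehand. Npy (2.23 and 3.96 CPM) reached the filter in the Sprr1a- cells of Female-CCI but not of Male-CCI. In NF2-like neurons Npy (8.68 ± 0.21), Gal (5.56 ± 0.67) and Adcyap1 (0.69 ± 0.11) were called, beside 33.8% of all genes. In NP1-like neurons Npy (2.50 ± 0.32) and Ucn (1.45 ± 0.22) were called, beside 23.1% of all genes, and Nts was not (0.22 ± 0.08, adjusted p = 0.0799).

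Sprr1a- neurons were compared between surgeries, with the CCI-ind-like clusters left out, to ask whether cells without the injury marker also carried more peptide. Npy went from 0.06 CPM in both sham libraries to 2.17 CPM in both CCI libraries (5.17 ± 0.21, 35.9-fold, adjusted p = 3.39e-04) and Nts from 30.1 and 30.7 to 83.2 and 87.6 CPM (1.47 ± 0.04, 2.76-fold, adjusted p = 1.56e-04). Crh went from 0.05 and 0.09 to 0.63 and 2.04 CPM (4.16 ± 0.73, adjusted p = 0.0269) and Ucn from 0.13 and 0.27 to 1.85 and 4.24 CPM (3.86 ± 0.57, adjusted p = 0.0211). These levels are small beside those of Sprr1a+ cells. Both sham sums of Npy lay under the low-count filter, so its CCI sums set its direction beforehand. Crh reached the filter in Female-Sham but not in Male-Sham, and so passed only together with a CCI sum. Of the 135 and 327 Ucn UMIs in the CCI sums, NP1-like cells held 98 and 47 and NF2-like cells 15 and 233, and Ucn was not called in any of the 3 classes where it was tested (NP1-, PEP1- and NF2-like). NP1-like cells held 4441 of 4802 and 4968 of 5616 Nts UMIs in sham and 5112 of 6059 and 4932 of 6751 in CCI, and Nts was not called in that class (0.94 ± 0.21, adjusted p = 0.0643). Of the 157 Crh UMIs of Female-CCI, 78 lay in NP1-like cells. Gal (330 and 361 against 451 and 595 CPM, 0.58 ± 0.14, adjusted p = 0.0608) and Adcyap1 (198 and 231 against 231 and 279 CPM, 0.22 ± 0.12, adjusted p = 0.249) were not called.

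Of all 16363 genes, 2.66% were called higher in these cells, beside 4 of the 7 peptides. Npy and Crh, among these 4, passed the low-count filter only with their CCI sums. Sprr1a itself was 4.79 ± 0.46 higher on the log2 scale (adjusted p = 0.0171), although all cells lay under the positive limit, and SGC-like cells went from 2.65 and 4.22 to 60.1 and 96.2 Sprr1a CPM. SGC-like cells held 0, 1.41, 10.5 and 7.00 Npy CPM and 0.88, 9.85, 32.7 and 56.0 Nts CPM in the same libraries, and the part of free RNA in the rise was not tested. With Male-Sham left out the adjusted p of Crh and Ucn was 0.179 and 0.122, and with Female-Sham left out 0.172 and 0.108. Gal was called without Male-CCI (0.76, adjusted p = 0.0157), as was Cck (1.61, adjusted p = 0.0408). With doublets kept, Npy was lost (2.20, adjusted p = 0.331), as was Nts (adjusted p = 0.0517), while Gal was called (0.68, adjusted p = 0.0222). Without a filter on low counts Npy and Nts stayed called and Crh and Ucn did not (adjusted p = 0.116 and 0.105). When the Ly6a-led and Ankrd1-led clusters were left out too, which was decided after the data were seen, the same 4 peptides were called, beside 3.51% of all genes, and Gal was at 0.17 ± 0.11 (adjusted p = 0.353).

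By class, 19 of 47 peptide tests in the Sprr1a- cells of 10 classes were called, against 3.25% of all tests in these classes. Npy took 8 of the 19, in NP2-, PEP1-, PEP2-, PEP3/4-, PEP5-, NF1-, NF2- and cLTMR-like cells. In NP2-like cells it had 1 UMI in the sham sums and 19 and 14 in the CCI sums, a ratio of 88.7 with an interval of 14.9 to 3610, and in NF2-like cells 0 against 15 and 15 UMIs, at least 14.5-fold higher. Peptides with so few sham UMIs passed the low-count filter only through their CCI sums, which set their direction beforehand. Gal was called in NP2- (3.01 ± 0.28), NP3- (2.74 ± 0.27), NF1- (2.97 ± 0.29) and cLTMR-like cells (3.26 ± 0.21). In NP2-like Sprr1a- cells that meant 4.32 and 4.54 against 28.1 and 44.7 CPM, below the 85.0 and 198 CPM of SGC-like cells. Nts was called in NP2-, PEP2-, PEP3/4- and cLTMR-like cells (2.51 to 3.0 on the log2 scale) and Crh in NP2- and PEP1-like cells, the latter from 2 UMIs in the sham sums to 9 and 14 in the CCI sums (ratio 25.5, interval 6.29 to 223). Adcyap1 was called in PEP5-like cells (0.62 ± 0.11), from 90.4 CPM in both sham libraries to 122 and 161 CPM, while SGC-like cells had less Adcyap1 after CCI (3.92 and 1.75 CPM) than after sham (7.05 and 4.22 CPM).

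How many of the 8 peptides a cell carried depended on the limit for a positive cell. At the limit used throughout, Sprr1a+ cells were positive for a mean of 2.01 peptides in both CCI libraries, against 0.95 and 1.09 in Sprr1a- cells of the same libraries and 0.86 and 0.95 in those of the sham libraries. At least 2 peptides were found in 72.1% (95% exact interval 69.8% to 74.4%) and 72.5% (70.3% to 74.5%) of the Sprr1a+ cells of Male-CCI and Female-CCI, and at least 3 in 24.7% and 25.2%. The share with at least 2, 72.3% as the mean of both libraries, was 37.0% when a positive cell had to pass a normalised value of 2 and 98.2% when any UMI sufficed. In Sprr1a- cells at least 3 peptides were found in 0.06%, 0.06%, 0.30% and 0.97% of the 4 libraries. At least 2 were found there in 35.4%, 39.9%, 39.2% and 45.1%.

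Exactly 4 peptides were found in 65 and 66 Sprr1a+ CCI cells, 5 in 5 and 2 cells, and 6 in 1 cell of Female-CCI. After thinning to 2000 UMIs, 60.5% and 63.2% of the Sprr1a+ CCI cells still showed at least 2. SGC-like cells had at least 2 in 6.15% and 9.91% of cases after CCI and in 0 of 190 and 0 of 150 cells after sham (up to 1.58% and 2.00%), at their lower depth. The part of free RNA in these numbers was not tested.

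**Figure D4:**
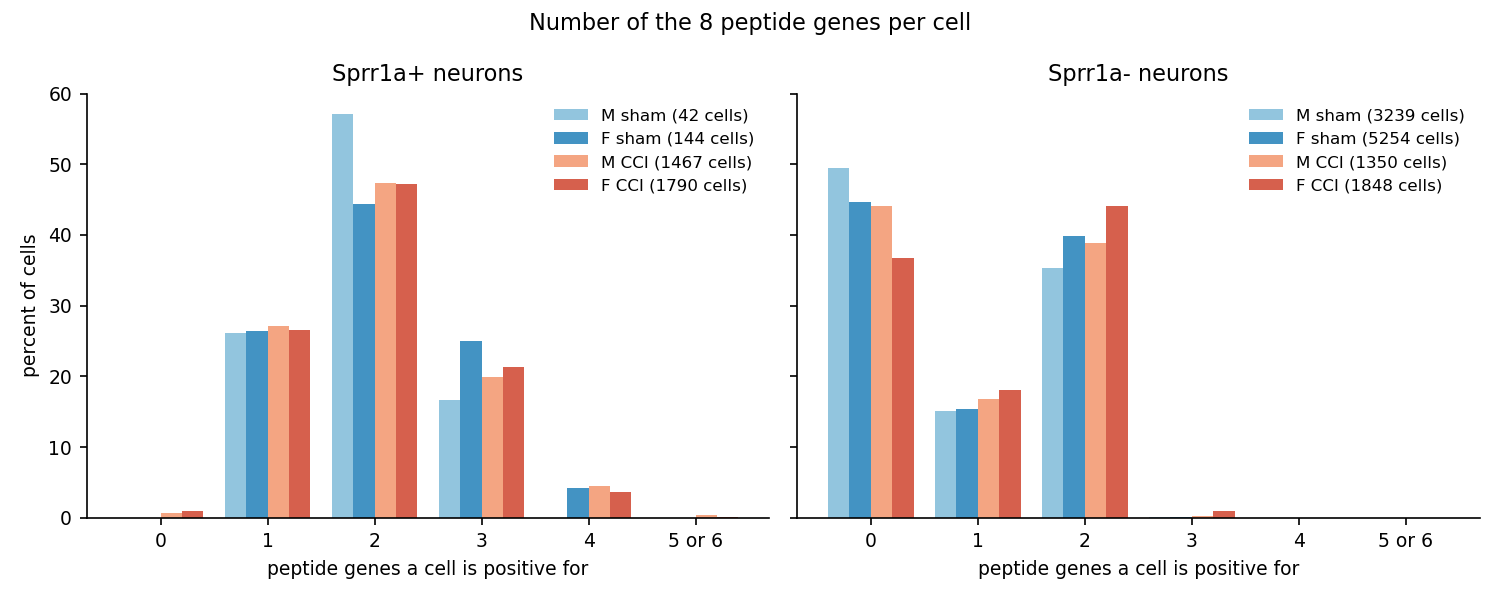
Percent of cells (vertical axis) positive for 0, 1, 2, 3, 4 and 5 or 6 of the 8 peptides in the Sprr1a+ (left) and Sprr1a- (right) neurons of the 4 libraries, M and F for the male and female library. In the Sprr1a+ cells of the CCI libraries 2 peptides per cell is the most frequent number, at 47.4% and 47.3%.

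Gal with Nts was the leading combination. It was the exact set of 513 and 630 Sprr1a+ cells (35.0% and 35.2%) of Male-CCI and Female-CCI, ahead of Gal alone (16% and 16.1%) and Nts alone (10.8% and 9.7%). Gal, Npy and Nts together came to 90 and 119 cells, Gal, Nts and Crh to 80 and 116 cells, and Gal, Nts and Ucn to 57 and 79 cells. These shares were close in the male and the female library. In Sprr1a- cells of the CCI libraries the leading sets were none of the 8 (44.1% and 36.7%) and Gal with Adcyap1 (37.9% and 41.7%), as in the sham libraries (49.4% and 44.7%, and 35.4% and 39.7%).

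Pairs were read as the share of cells positive for one peptide among those positive and negative for the other. In the Sprr1a+ cells of Male-CCI and Female-CCI, Nts was found in 94.2% (90.4% to 96.8%) and 90.7% (86.4% to 93.9%) of Npy-positive cells against 76.3% and 73.8% of Npy-negative cells. It was found in 94.1% and 87.9% of Crh-positive cells against 77.1% and 74.7%, and in 93.2% and 93.1% of Ucn-positive cells against 77.5% and 74.3%. Nts thus accompanied each of the 3 rarer peptides. Crh and Ucn, by contrast, were seldom found together, since Ucn was positive in 2.7% (0.9% to 6.2%) and 4.2% (1.9% to 7.8%) of Crh-positive cells against 12.2% and 11.4% of Crh-negative cells.

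Gal with Nts was the most frequent pair, yet Gal was less frequent where Nts was present. It was found in 71.3% (68.6% to 73.9%) and 76.5% (74.1% to 78.7%) of Nts-positive cells against 93.8% and 92.5% of Nts-negative cells. The direction was not the same within clusters. In Wfdc3-led cells Gal was in 60.5% and 60.6% of Nts-positive against 95% and 86.5% of Nts-negative cells. In NF2-like Sprr1a+ cells it was in 95.1% and 86.7% of Nts-positive against 76.0% and 52.4% of Nts-negative cells, and in NF1-like Sprr1a+ cells in 71.4% and 65.2% against 16.7% and 40.0%. In the Anxa1-led cluster, Nts was found in 99.1% and 97.6% of Npy-positive and in 97.9% and 98.4% of Npy-negative cells.

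Adcyap1 stood apart from the injury set. In Sprr1a+ cells it was positive in 4.4% and 4.5% of Nts-positive against 11.8% and 16% of Nts-negative cells. Over all neurons it was found in 88.6% and 87.0% of the Gal-positive cells of Male-Sham and Female-Sham but in 34.1% and 37.8% of those of Male-CCI and Female-CCI. Read the other way the pair hardly moved, for Gal was found in 80.8%, 80.9%, 80.2% and 81.2% of Adcyap1-positive cells.

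**Figure D5:**
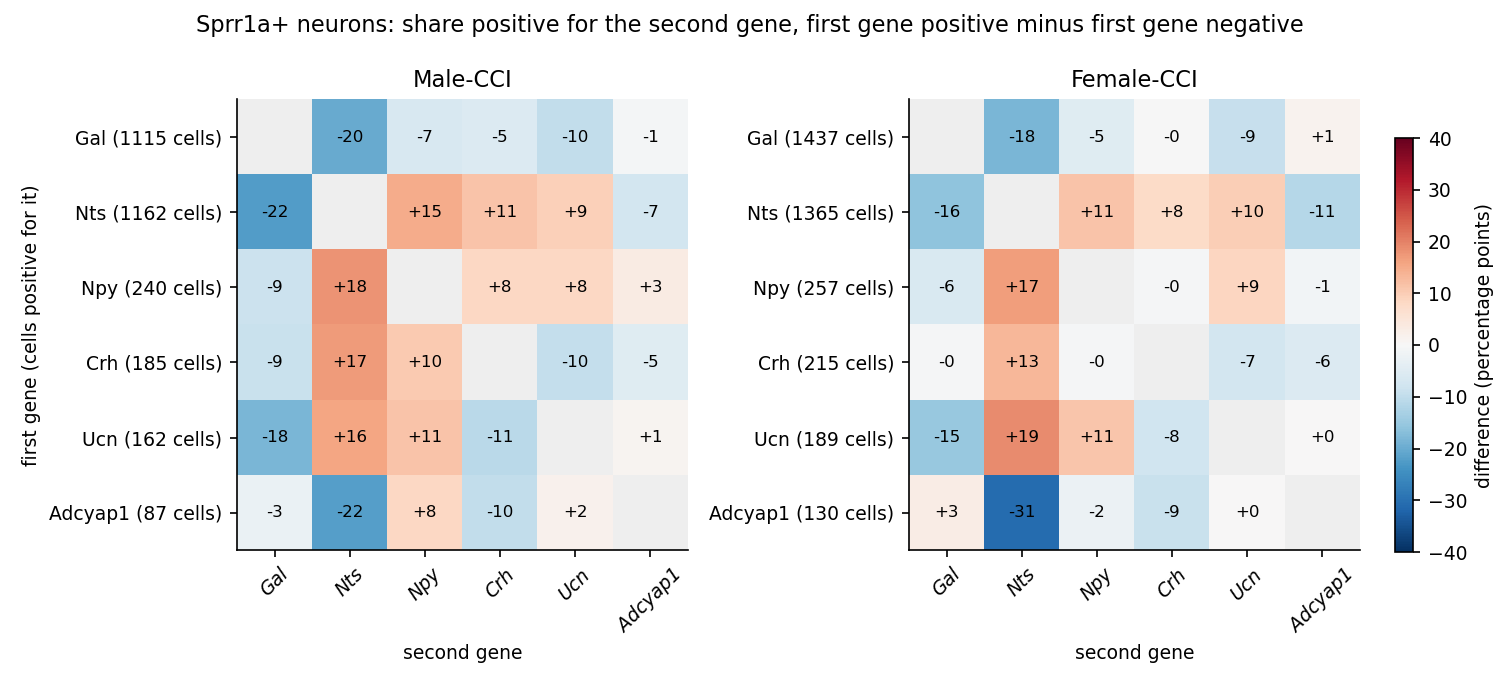
Difference, in percentage points, between the share of cells positive for a second peptide (columns) among cells positive and among cells negative for a first peptide (rows), in the Sprr1a+ neurons of Male-CCI (left) and Female-CCI (right). Red fields (a positive difference) join Nts with Npy, Crh and Ucn, and blue fields separate Nts from Gal and Adcyap1 and Crh from Ucn in both libraries.

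Receptors, processing genes and other peptides were read from the same tests. Of 18 receptor genes 14 were tested over all neurons, where 3 rose and 5 fell, beside 15.2% of all genes called higher and 12.7% lower, and the median log2 fold change was -0.45, against -0.01 over all genes. Cckbr, the brain-type cholecystokinin receptor, rose from 0.81 and 1.65 to 26.1 and 24.3 CPM (4.39 ± 0.37, adjusted p = 0.0020). Galr1 and Galr2, receptors of galanin, fell by 1.02 ± 0.09 and 1.99 ± 0.37 on the log2 scale, Galr1 from 13.4 and 11.7 to 5.54 and 6.32 CPM and Galr2 from 0.27 and 0.18 to 0.04 and 0.06 CPM. The neurotensin receptor Ntsr2 fell by 1.55 ± 0.07, from 9.61 and 9.84 to 3.25 and 3.15 CPM, and Crhbp, the secreted binding protein of CRH and urocortin, fell by 0.63 ± 0.17.

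Among 24 processing and dense-core vesicle genes 3 rose and 4 fell, with a median of -0.17, a share of calls near the 15.2% higher and 12.7% lower of all genes. Vgf, a granin-like secreted precursor, rose from 75 and 78.8 to 217 and 235 CPM (1.61 ± 0.06), and Ptprn, a dense-core vesicle membrane protein, rose by 0.59. Cadps2, which primes dense-core vesicles, fell by 1.51 ± 0.25 and Resp18 by 0.63. Of the 12 other peptides of the same families 5 were tested, and Ucn2 (3.57 ± 0.38) and Nms (1.27) rose while Gast and Nmu fell by 1.35 and 1.2, with Ucn2 at 0.25 CPM or less in each library.

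Of 11 tested peptides that sensory neurons carry without injury, 6 fell and 2 rose (12.7% and 15.2% of all genes), with a median of -0.85. Tac1, the precursor of substance P, went from 2692 and 3085 to 1274 and 1731 CPM (-0.89 ± 0.17), Sst fell by 1.43 ± 0.35 and Cartpt by 0.86, and Grp, gastrin-releasing peptide, rose by 3.15 ± 0.21. Within the CCI libraries 8 of them were lower and 2 higher in Sprr1a+ than in Sprr1a- cells, against 24.7% and 20.9% of all genes. In Sprr1a- cells the median of the list between surgeries was -0.03.

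Some other genes had patterns close to those of the members over the 105 sums per cluster and library (Pearson correlation of log2(CPM + 1), a description in which sums share libraries and depth). Klf6 was nearest to Gal (r = 0.86), Star and Cryba2 to Npy (0.85 each), Gm47595 to Nts (0.90), Npy1r to Adcyap1 (0.89), Rnf183 to Crh (0.92), Krt19 to Ucn (0.92) and Ptprk to Cck (0.80). Among the members themselves Nts with Ucn (0.83) and Npy with Ucn (0.82) were closest, Crh with Ucn had 0.66 and Gal with Npy 0.53. Adcyap1 had 0.56 with Gal and -0.17 to -0.03 with Npy, Nts, Crh and Ucn.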

How the data were processed

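The files hold raw UMI counts per gene and cell barcode as the authors deposited them, made with Cell Ranger (3.0.2 in the file headers) on mm10 from 10x Chromium 3′ libraries. Doublets were scored with Scrublet, for which the expected rate was set to 0.1. Its automatic limit marked 0 to 121 cells per library and was not used. The cells with the highest scores were left out instead, as many per library as the study listed as doublets. As doublets, 837 of 5019 and 1381 of 8035 deposited cells were left out in Male-Sham and Female-Sham. In Male-CCI and Female-CCI these were 601 of 4019 and 912 of 6618, so the rate of 0.1 is not the share left out. Cells were integrated and clustered with Seurat 5.3.0 (canonical correlation, 3000 variable genes, 20 components, resolution 0.8) with the 8 peptide genes left out, and clusters were named from marker lists, with naming limits set after the data were seen. At least 3 markers of a class had to be present, and clusters without a clear match stayed unnamed. Names are rebuilt here, so classes can differ from those of the study.

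Counts were summed per group of cells and library and tested with edgeR 4.0.16 (quasi-likelihood, TMM, filter on low counts, Benjamini-Hochberg over all genes, R 4.3.3), with at least 10 cells in every sum. Library was a block within the CCI libraries. A male and a female library per surgery were the replicates, each a pool of mice, so the spread mixes sex with preparation. Intervals are 95% exact (Clopper-Pearson) and cover counting error only, as does the floor of 3 UMIs used where a group had 0. On simulated counts with 200 changed genes, genes changed by 1 on the log2 scale were recovered in 80% and those changed by 2 in 97% of cases in the comparison of all neurons, where 14 unchanged genes were called. Recovery was 85% and 100% within the CCI libraries (16 unchanged genes called). For injured against uninjured cells it was 77% and 98% in the NP1-like class (16) and 66% and 93% in the NF2-like class (9). The limit for a positive cell was the one that the study used for Sprr1a, and part of the SGC-like cells passed it for peptides as well.

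Named genes were the 8 members, the called genes of each pathway list with the largest change over all neurons (at most 4 per list), and the 3 genes most correlated with each member. The members and lists were chosen with earlier results of these data known. The results were recomputed with DESeq2 1.42.0, with sex as a block, without filtering low counts, with doublets kept, with other clusterings, other limits of Sprr1a and of the peptides, at least 3000 genes per cell, and with each library left out where a residual degree of freedom remained.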

Additional observations from a re-analysis of the deposited data

Results flagged for a closer look

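Differences of the injury effect between classes (Sprr1a+ CCI over Sprr1a- sham neurons, interaction term) were called for 2 peptides, Nts and Cck. Of all 13058 genes, 29% differed between NF1- and NP1-like, 22.6% between NF2- and NP1-like and 15.2% between NF2- and NF1-like neurons. Nts differed between NF1- and NP1-like neurons by 8.37 ± 0.18 on the log2 scale (edgeR, adjusted p = 4.42e-20) and between NF2- and NP1-like neurons by 8.88 ± 0.23 (adjusted p = 1.75e-18), with all CCI libraries of the 3 classes above all sham libraries of their class. The NP1-like cells came mainly from the Sst-led cluster in sham and the Cd207-led cluster in CCI, and the part of this in the Nts differences was not tested. Cck differed between NF2- and NP1-like neurons by 7.12 ± 1.27 (adjusted p = 1.25e-04) and between NF2- and NF1-like neurons by 8.69 ± 1.39 (adjusted p = 6.32e-05), which rests on 15 and 12 UMIs in the CCI sums against 0 in both sham sums of the NF2-like class.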

How the results depend on the processing

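Of the member fold changes recomputed under the alternatives, 522 kept their direction and side of the threshold, 28 newly passed it, 37 no longer did and 3 reversed, each of the last for Cck: -0.19 in Sprr1a+ against Sprr1a- CCI neurons with Sprr1a+ above 2, and -0.71 without CCI replicate 2 and -0.22 without Sham replicate 1 in NP1-like neurons, where its values with a library left out reached 0.62. The peptides called over all neurons (5) became 3 with sex as a replicate block, where Npy, Crh and Ucn had adjusted p = 0.0859, 0.112 and 0.0971, and ranged from 2 to 5 with a library left out. Those in Sprr1a- neurons between surgeries (4) became 2 without a filter on low counts and ranged from 2 to 6 with a library left out, and with doublets kept Npy was lost (2.20, adjusted p = 0.331). With a library left out, the calls in injured against uninjured NP1-like neurons (4) ranged from 3 to 6, in NF1-like (6) from 4 to 6 and in NF2-like (6) from 6 to 7. The calls by class within the CCI libraries (10) became 6 with Sprr1a+ above 2. Those by class in Sprr1a- neurons (19) became 9 with DESeq2, 32 without a filter, 30 with the sex block and 11 with Sprr1a+ as any UMI, and ranged from 16 to 27 with a library left out. The differences between classes (4) became 7 with DESeq2, 8 with doublets kept, 7 without a filter and 7 with Sprr1a+ as any UMI, and ranged from 6 to 8 with a library left out. The share of Sprr1a+ CCI cells with at least 2 peptides (72.3% as the mean of both libraries) was 98.2% with any UMI, 37.0% above 2, 61.9% after thinning, 59.8% with Sprr1a+ as any UMI and 73.4% with Sprr1a+ above 2. The causes of these changes were not tested.

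Sex was not a term of the reported fits. Libraries of the same sex came from different animals, their male minus female deviations correlated at 0.56 over 17233 genes (0.28 over 16689 without the X and Y chromosomes), and 2 pairs are too few to settle the pairing. Counts over all genes moved by over 1.5 times with Sprr1a+ as any UMI (7394 to 4782 within the CCI libraries, 5505 to 2293 in NF1-like and 4971 to 3237 in NF2-like neurons, 618 to 948 in Sprr1a- neurons) and, for Sprr1a- neurons, with a library left out (191 to 377). Leaving out a library within the CCI comparison leaves no residual degree of freedom and was not run. The lowest levels are limited by counting, the floor of 3 UMIs being 1.58% to 2.70% of SGC-like cells.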
